A study of Arabidopsis thaliana with 6 samples.

Results

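AT3G01345, MRD1 (AT1G53480) and AT5G35935 (listed as AT5G35935.1) are 3 of the 19955 genes in the authors' deposited table, chosen because each stood near the lower end of the table in one genotype and clearly above it in the other. The values that chose them were the deposited FPKM of WT against mir163, so their own differences are given here as a description, with no test. AT3G01345 and MRD1 were abundant or moderate in WT and nearly absent in mir163. AT5G35935 went the other way, from nearly absent in WT to a low level in mir163.

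The material was whole untreated seedlings of Arabidopsis thaliana Col-0, 7 days old, grown at 22 °C in 16 h of light and 8 h of dark. The groups were WT and the mir163 mutant, whose allele the labels do not name, with 3 libraries each that the labels call biological replicates. FPKM is a level per length, in fragments per kilobase relative to the library's mapped fragments. The table holds 1 FPKM value per genotype, so no spread between replicates and no read depth can be given for any value below, and fewer expressing cells cannot be told apart from less RNA per cell. MIR163 itself, the mutated locus, had a WT FPKM of 20.5 and a mir163 FPKM of 0.0726. Markers of green tissue and root were well expressed in both genotypes, RBCS1A at 18310 and 15342 and the endodermal CASP1 at 56.6 and 50.2. The dry-seed marker CRA1 stood at 1.43 in WT and 7.71 in mir163, with a p of 0.00125 in the authors' deposited table. After Benjamini-Hochberg adjustment of the authors' p-values its adjusted p was 0.9996. The part of this difference in the results below was not tested.

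As background, plant genomes keep most transposons and their remnants silent through methylation of cytosines, set and copied by DNA methyltransferases, by a chromatin remodeller and by a small-RNA pathway. Some genes that carry or adjoin repeated sequence are held in stable silent or active states by the same machinery, and these states can differ between plant lines of 1 accession. A microRNA acts otherwise, by pairing with a complementary site in a target mRNA. DNA methylation was not analysed here.

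AT3G01345 showed the largest WT-to-mir163 ratio of any gene above 0 in both genotypes. RefSeq annotates it on the plus strand of chromosome 3, positions 129138 to 130749 of TAIR10.1, as a protein-coding gene of 1 exon with 1401 coding bases. Its product is called uncharacterized, with a glycoside hydrolase domain noted. Its FPKM was 317 in WT and 0.626 in mir163. WT therefore stood 506 times as high, a log2 ratio of -8.98 for mir163 over WT. In WT the gene ranked 490th of the table by FPKM, and in mir163 it ranked 19728th. The WT level lay far above the table's median FPKM of 12.2, and the mir163 level far below it.

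MRD1 is annotated on the minus strand of chromosome 1, positions 19963047 to 19964712. The name stands for a transcript that is less abundant in the mto1-1 mutant, which accumulates soluble methionine, and the annotation gives the protein no function. Its FPKM was 52.1 in WT and 1.25 in mir163, or 41.7 times as high in WT, a log2 ratio of -5.38. MRD1 ranked 3134th in WT and 18549th in mir163. It was the fourth gene by ratio among the 9706 genes with a lower value in mir163 and above 0 in both genotypes.

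AT5G35935 is annotated as a pseudogene on the minus strand of chromosome 5, positions 14083388 to 14089891. Its FPKM was 0.430 in WT and 3.84 in mir163, 8.94 times as high in mir163, a log2 ratio of 3.16. The mir163 value ranked only 15536th of the table, so that this locus was low even in the genotype where it was detected more. By ratio it came 24th of the 10238 genes with a higher value in mir163 and above 0 in both genotypes. With 6504 bases it is the longest of these loci, at about 4 times the length of either of the others.

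**Figure D1:**
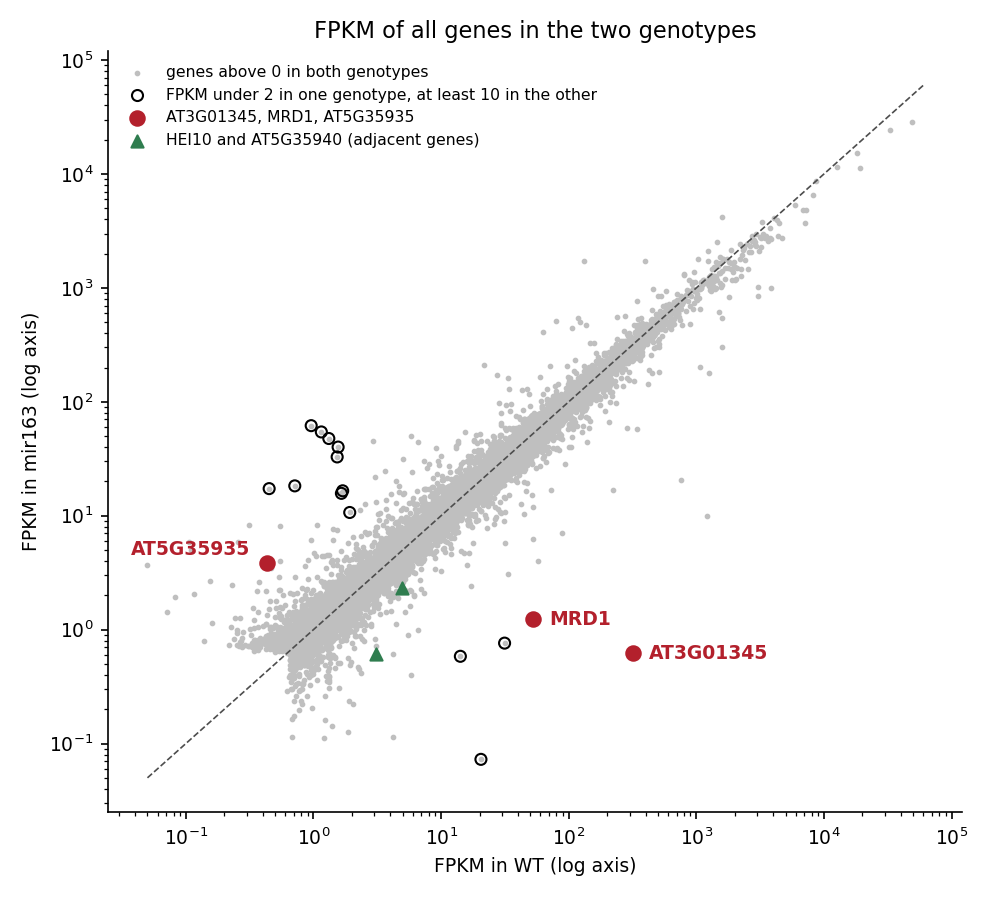
FPKM in WT (x axis) and mir163 (y axis), both on log axes, for each gene above 0 in both genotypes (grey), with the 3 loci in red, their neighbours HEI10 and AT5G35940 as triangles, and other genes under an FPKM of 2 in one genotype and at least 10 in the other as open circles. The dashed line marks equal values. AT3G01345, at 317 and 0.626, lies farthest to the right among the low mir163 values, while AT5G35935, at 0.430 and 3.84, lies among much weaker genes.

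In the authors' deposited table the p-values of the contrast were 5e-05 for AT3G01345 and AT5G35935 and 0.0176 for MRD1. The value 5e-05 is the lowest in the table and was shared by 11 of the 19264 genes with an FPKM of at least 1 in a genotype. After Benjamini-Hochberg adjustment of the authors' p-values over these genes, the adjusted p was 0.0876 for AT3G01345 and AT5G35935 and 0.9996 for MRD1. At an adjusted p under 0.05, 0 of the 3 loci and 0% of all genes were called in either direction. At an unadjusted p under 0.05 the background was 0.327% of genes lower and 0.670% higher in mir163. The loci were chosen on this contrast, so nothing is read from these values. AT5G35935 met the minimum of 1 only through mir163, AT3G01345 only through WT, and MRD1 in both genotypes.

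An FPKM under 2 in one genotype and at least 10 in the other was found for 20 genes, 0.104% of those tested, 11 higher and 9 lower in mir163. AT3G01345 and MRD1 belong to these. AT5G35935 does not, because its higher value did not reach 10. The likeness of other genes was measured over the 2 genotype values, as the distance between absolute differences in log2(FPKM + 1), on which scale AT3G01345 stood at -7.61, MRD1 at -4.56 and AT5G35935 at 1.76.

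The 7 other genes lower in mir163 included several short and non-coding ones. The nearest to MRD1 was MIR163, whose log2(FPKM + 1) difference was -4.33. AT2G36854, a 186-base gene, was next with an FPKM of 31.4 and 0.761. RTFL18, of a family of small polypeptides, stood at 44.3 in WT and is listed at 0 in mir163. AT5G15853 stood at 14.2 and 0.583. The nearest to AT3G01345 was AT4G09649, at 117 in WT and listed at 0 in mir163, followed by the small nucleolar RNA gene AT2G20722 at 1505 and 0, and by ATCG00030 at 5615 and 0. Of these 7, only AT4G09649 and RTFL18 had an authors' p under 0.05, beside 0.327% of all genes tested that were lower at that p. Nothing is read from that count, since the set was selected for a large difference in this contrast. Of the same 7, 4 were annotated as shorter than 300 bases. AT3G01345 and MRD1, at 1612 and 1666 bases, are much longer than those 4.

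Among the 11 genes of this set higher in mir163, AT2G35733 was nearest to AT5G35935, with FPKM values of 1.92 and 10.7. AT5G35935 is outside the set, and genes outside it can be closer, such as CRA1 at a difference of 1.84. COL9, a flowering regulator related to CONSTANS, stood at 1.65 and 15.7, and the small nucleolar RNA gene AT3G14475 at 1.69 and 16.5. They were followed by AT3G20900 at 0.713 and 18.3, the cold-regulated clock gene COR27 at 0.449 and 17.3, and JMJD5, a jumonji-domain protein of the clock, at 1.53 and 32.8. RbcX1, a chaperone of Rubisco assembly, stood at 1.56 and 40.1, and PXMT1, a methyltransferase targeted by miR163, at 1.32 and 47.6. All 8 stood above AT5G35935 in mir163 by construction, because the set required a higher FPKM than AT5G35935 reached, so nothing is read from that. Of these 8, COL9, COR27, JMJD5 and PXMT1 had an authors' p under 0.05. Of all 11, 5 did, beside 0.670% of all genes tested that were higher at that p. Nothing is read from these counts, since the set was selected for a large difference in this contrast.

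The genes beside the 3 loci were taken by position and not by their values, so a contrast with the selected loci is built in. With the 5 nearest genes of the table on each side of each locus, 30 neighbours were compared and 29 reached the minimum FPKM. Of these 29, 16 were above and 13 below their WT level in mir163, 0 passed an adjusted p of 0.05, and 1 had an unadjusted p under 0.05, against 0.997% of all genes in either direction. The median difference in log2(FPKM + 1) was 0.01 for the neighbours and 0.01 for all genes tested. In all, 24 neighbours lay within 1.25-fold between genotypes, a share of 82.8% beside 80.7% of all genes tested and above 0 in both genotypes, so that their share was near the background.

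**Figure D2:**
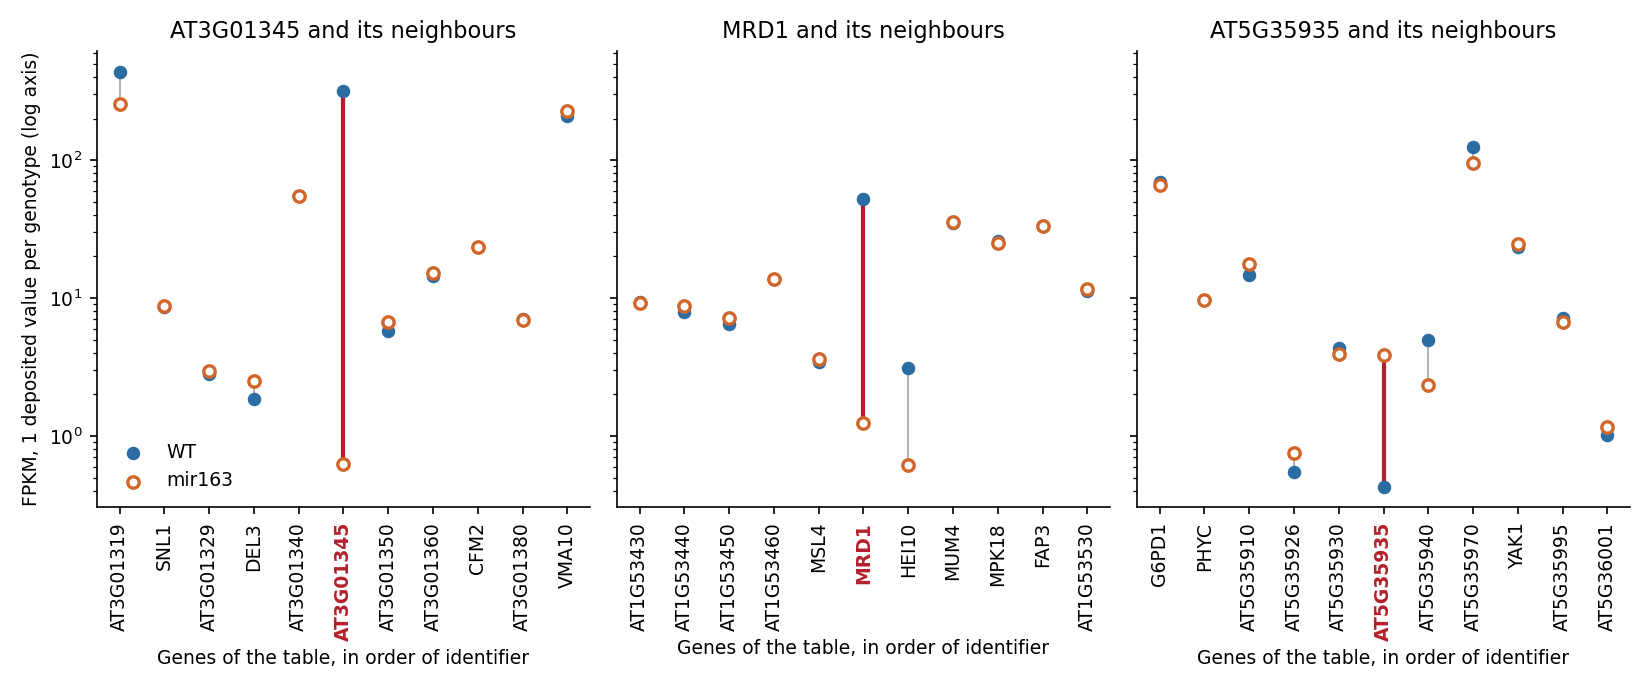
FPKM on a log axis in WT (filled blue) and mir163 (open orange) for AT3G01345, MRD1 and AT5G35935 (red lines) and the 5 nearest genes of the table on each side, in order of identifier. Most neighbours show overlapping points, AT3G01340 at 55.2 and 55.0 among them, while HEI10, AT5G35940 and AT3G01319 stood lower in mir163.

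AT3G01345 lies head to head with AT3G01340, a WD40-repeat protein annotated to intracellular protein transport, and the annotated starts of the genes are separated by only 143 bases. AT3G01340 had FPKM values of 55.2 in WT and 55.0 in mir163 (p 0.993 in the authors' deposited table). The genes starting at the ends of this short stretch therefore differed by a ratio of 506 and by almost none. On the far side, AT3G01350, a transporter of the major facilitator superfamily, stood at 5.78 and 6.66 (authors' p 0.775), and AT3G01360 at 14.5 and 15.1. DEL3, annotated as a member of the E2F transcription factors, stood at 1.85 and 2.50 (authors' p 0.408). Of the 10 neighbours, 8 lay within 1.25-fold. Besides DEL3 the exception was AT3G01319, a 141-base gene named after its values were seen, at 438 in WT and 256 in mir163 (authors' p 0.604). The adjacent long non-coding RNA gene AT3G00995 was not analysed here.

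The stretch between AT3G01340 and AT3G01345, chr3:128995-129137 on the plus strand of TAIR10.1, is shown because it lies between the annotated starts of these genes. Capitals mark CG, the dinucleotide whose methylation is copied at replication.
AT3G01340-AT3G01345: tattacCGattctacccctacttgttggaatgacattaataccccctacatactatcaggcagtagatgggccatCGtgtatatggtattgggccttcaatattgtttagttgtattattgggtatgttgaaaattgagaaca
It holds 2 CG dinucleotides, with 5 cytosines in CHG and 44 in CHH context on both strands together, where H is A, C or T. In the window from 250 bases before to 50 after the annotated start, AT3G01345 had 6 CG dinucleotides, equal to the median of 37897 such windows of annotated genes. Its 89 CHH cytosines were matched or exceeded in 8.29% of windows.

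MRD1 overlaps HEI10 (AT1G53490), which encodes a RING-finger protein required for most meiotic crossovers and lies on the plus strand at positions 19963267 to 19966952. The genes overlap by 1446 bases. The first exon of the longer HEI10 transcript, 1075 bases at positions 19963267 to 19964341, lies inside MRD1 and holds no coding sequence of HEI10. HEI10 had FPKM values of 3.09 in WT and 0.615 in mir163, 5.03 times as high in WT, with an authors' p of 0.148. Of the 2252 exonic bases of that HEI10 transcript, 922, or 40.9%, are also exonic in MRD1 on the other strand, whereas the shorter transcript of 885 bases shares 0. Strand use in library preparation and counting is unknown, so a lower HEI10 cannot be told apart from fewer MRD1 fragments counted to HEI10. The antisense RNA gene AT1G07887, 1039 bases inside MRD1, was not analysed here, nor was AT1G07883, which is annotated near MRD1.

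The genes just beyond this pair were close to equal in both genotypes. MSL4, a mechanosensitive ion channel, stood at 3.42 and 3.58 (authors' p 0.877), and AT1G53460 at 13.8 and 13.7. On the HEI10 side, MUM4, a rhamnose synthase of pectin and seed mucilage, stood at 34.8 and 35.8 (authors' p 0.936). Of the 10 neighbours of MRD1, 9 lay within 1.25-fold, HEI10 being the exception.

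The 2-exon transcript of MRD1 is annotated to start at 19964712. A 1-exon transcript starts at 19964188, inside the first exon of the longer HEI10 transcript, and no window was taken there. Which start was used in these seedlings was not tested. The window around the start at 19964712, chr1:19964663-19964962 on the minus strand of TAIR10.1, lies wholly in an intron of the longer HEI10 transcript. It is shown with CG in capitals.
MRD1 start: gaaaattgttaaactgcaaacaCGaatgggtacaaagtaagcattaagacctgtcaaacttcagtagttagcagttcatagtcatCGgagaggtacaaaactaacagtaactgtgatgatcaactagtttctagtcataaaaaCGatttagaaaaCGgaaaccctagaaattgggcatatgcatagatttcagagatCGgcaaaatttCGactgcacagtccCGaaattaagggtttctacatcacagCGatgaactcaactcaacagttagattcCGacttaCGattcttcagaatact
It holds 10 CG dinucleotides, a number reached by 22.3% of windows. Its 29 CHG cytosines were matched or exceeded in only 1.46% of windows, against a median of 11.

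MRD1 has partial copies at 3 other places in the nuclear genome, found by BLAST as alignments of at least 150 columns. The longest, 1061 columns at 89.9% identity, lies on chromosome 5, positions 725458 to 726513. It overlaps part of AT5G03090, a gene annotated as a related protein, and includes the second exon of that gene. AT5G03090 had FPKM values of 2.83 in WT and 1.08 in mir163 (authors' p 0.386), lower in mir163 as MRD1 was. The second copy, 558 columns at 91.9% identity on chromosome 1, and the third, 221 columns at 93.2% on chromosome 2, were not analysed here for expression. The longest run of identical bases was 50 for the AT5G03090 copy and 59 for the copy on chromosome 1. Over the second exon of AT5G03090, 275 bases, 88.7% of bases are identical in MRD1. How the authors counted reads that match more than 1 place is unknown, so the levels of MRD1 and AT5G03090 are uncertain to that extent.

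AT5G35935 also lies head to head with a neighbour, AT5G35940, a mannose-binding lectin on the plus strand at positions 14090574 to 14093007, with 682 bases between the annotated starts. AT5G35940 had FPKM values of 4.96 in WT and 2.33 in mir163, 2.13 times as high in WT and thus opposite in direction to AT5G35935. It was the neighbour with an unadjusted p under 0.05 in the authors' deposited table, at 0.0174, and it did not pass after Benjamini-Hochberg adjustment of the authors' p-values over all genes, with an adjusted p of 0.9996. AT5G35970, an annotated nucleoside triphosphate hydrolase, came next on that side at 124 and 95.4 (authors' p 0.484). On the other side, AT5G35930, of the AMP-dependent synthetase family, stood at 4.38 and 3.91 (authors' p 0.656). The locus AT5G35932, annotated near AT5G35935, was not analysed here. AT5G35926 was under 1 in both genotypes, at 0.552 and 0.751. Of the 10 neighbours, 7 lay within 1.25-fold.

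**Figure D3:**
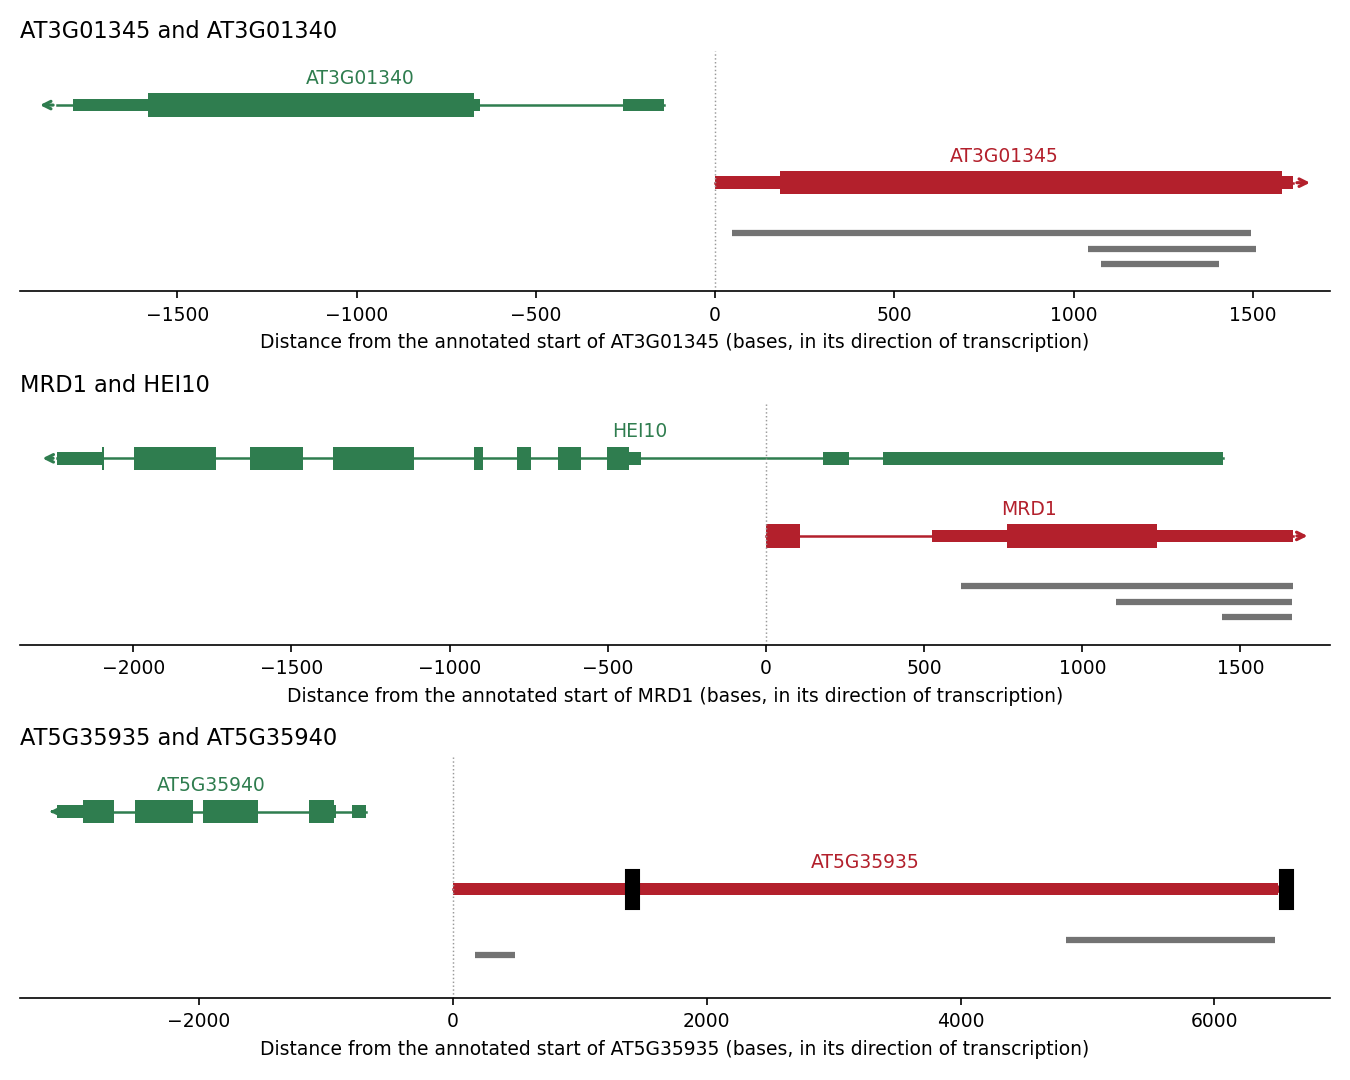
Annotated exons (thin boxes) and coding sequence (thick boxes) of AT3G01345, MRD1 and AT5G35935 (red) and of the adjacent gene on the other strand (green), by distance in bases from the annotated start of each red locus. Grey bars mark the parts with a partial copy elsewhere in the genome, and black boxes the 103-base repeats of AT5G35935. The starts lie 143 and 682 bases apart in the upper and lower panels, while MRD1 and HEI10 overlap by 1446 bases.

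A start of a gene on the other strand at most 1000 bases upstream, as for AT3G01345 and AT5G35935, is found for 19.5% of 32287 annotated protein-coding genes and pseudogenes. MRD1 is not counted in this way, since the gene start of HEI10, that of its longer transcript, lies inside it. The shorter HEI10 transcript starts at 19965146, upstream of MRD1, but only gene starts were counted.

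The sequence of AT5G35935 holds a repeat in the same orientation, shown because the copies are nearly identical and lie 5050 bases apart. Repeat 1, chr5:14083274-14083376, ends just outside the annotated 3′ end, and repeat 2, chr5:14088427-14088529, lies inside. Both are 103 bases and are printed on the plus strand of TAIR10.1, with the 1 base that differs in capitals.
Repeat 1: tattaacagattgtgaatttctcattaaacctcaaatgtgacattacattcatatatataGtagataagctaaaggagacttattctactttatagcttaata
Repeat 2: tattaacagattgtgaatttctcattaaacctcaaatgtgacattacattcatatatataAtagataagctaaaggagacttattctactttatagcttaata
Near-identical direct repeats at both ends are a known feature of retrotransposons with long terminal repeats. The repeats printed here do not lie at both annotated ends of AT5G35935, and no such element is named at this place in the annotation used. Whether the locus derives from one was not tested.

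The window around the annotated start of AT5G35935, chr5:14089842-14090141 on the minus strand, is shown with CG in capitals.
AT5G35935 start: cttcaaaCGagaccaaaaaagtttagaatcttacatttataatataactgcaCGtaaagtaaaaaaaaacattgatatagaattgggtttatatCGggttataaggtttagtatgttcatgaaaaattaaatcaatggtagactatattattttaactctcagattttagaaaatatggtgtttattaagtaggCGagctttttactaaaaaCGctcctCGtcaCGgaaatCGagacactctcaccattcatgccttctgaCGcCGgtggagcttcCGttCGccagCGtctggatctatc
It holds 13 CG dinucleotides, which 10.2% of windows reach, and 63 CHH cytosines against a median of 73. Among the contexts, the share of windows that matched or exceeded the locus was lowest for CHH in AT3G01345, for CHG in MRD1 and for CG in AT5G35935. These are the most extreme of 3 contexts at each locus. The 62 CHH cytosines of MRD1 were matched or exceeded in 85.6% of windows. The 15 CHG cytosines of AT3G01345, and the 15 of AT5G35935, were matched or exceeded in 29.1%. Motifs were sought on both strands in the same windows. TATAAA was found for AT5G35935 alone and in 48.8% of all windows. The evening element AAATATCT, in 5.08% of windows, and the G-box CACGTG, in 6.46%, were found for none of the 3 loci.

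AT3G01345 and AT5G35935 were less similar to other parts of the genome than MRD1. AT3G01345 had 3 partial copies at 76.7% to 81.3% identity, with no identical run over 32 bases. The copy on chromosome 5, 332 columns at 81.3% identity, overlaps several annotated loci. Of these AT5G28919 was in the table, with FPKM values of 50.5 in WT and 36.8 in mir163 (authors' p 0.482). AT5G35935 had 2 partial copies, at 77.6% and 83.6% identity. The gene AT3G27906 at the second stood at 16.4 and 20.5 (authors' p 0.439).

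None of the 3 loci contained a site for miR163 within 4 differences, with mismatches counted and a single-base gap allowed once. The mature microRNA, at chr1:24884359-24884382 on the plus strand, is given with its seed, bases 2 to 8, in capitals.
miR163: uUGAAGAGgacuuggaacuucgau
The closest match had 8 differences in AT3G01345, 10 in MRD1 and 9 in AT5G35935, where the known target PXMT1 has 1. The MIR163 gene itself had 0 partial copies elsewhere at the same BLAST limits.

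AT5G35935 is 1 of 101 identifiers in the table that carry a transcript suffix, and 99 of these are annotated as pseudogenes. The other 100 gave 86 that reached the minimum FPKM, of which 41 were above and 45 below their WT value in mir163. Their median difference in log2(FPKM + 1) was -0.02. At an unadjusted authors' p under 0.05 there were 0 higher and 1 lower, near the background of 0.670% and 0.327% of all genes. The lower one was AT3G17050 at an FPKM of 10.4 and 5.16. By plain ratio the next after AT5G35935 was AT1G34842, at 0.512 and 1.55, or 3.04 times as high in mir163 with an authors' p of 0.383. 

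Genes of DNA methylation and silencing were listed because they are known to set and keep silent states at repeated sequence. All 38 listed genes were tested, 25 of them above and 13 below their WT level in mir163, and 0 had an unadjusted authors' p under 0.05, beside 0.997% of all genes, which for a list of this length is near the background. Their median difference in log2(FPKM + 1) was 0.05, against 0.01 over all genes tested, and the lowest authors' p was 0.226. Plain ratios of mir163 over WT ran from 0.831 to 1.42, so that 0 of 38 lay beyond 1.5-fold, where 6.83% of all genes tested and above 0 in both genotypes did. The members with the highest mean FPKM were RDM1, which acts with the de novo methyltransferase, at 23.1 in WT and 22.3 in mir163, and AGO4, the Argonaute of the small-RNA pathway, at 20.2 and 20.1. SUVH9, which binds methylated DNA, stood at 17.5 and 19.1, and HDA6, a histone deacetylase, at 15.7 and 15.9. The maintenance methyltransferase MET1 stood at 8.87 and 10.08, the chromatin remodeller DDM1 at 5.32 and 5.97, and the DNA demethylase ROS1 at 5.41 and 5.69. These last were named for their roles after values were seen.

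Of 8 listed loci that DNA methylation is known to silence in some plants or lines, 2 were compared and the others were not analysed here. Neither of the 2 was at 0 in WT. QQS, an orphan gene that affects starch content, stood at 2.18 in WT and 1.34 in mir163 (authors' p 0.298). BNS, which becomes methylated and silent in selfed ddm1 lines, stood at 24.7 and 19.9 (authors' p 0.525). Both had lower values in mir163 and neither passed the threshold.

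Methionine and S-adenosylmethionine metabolism, listed because of the mto1 response for which MRD1 is named, was compared in the same way. Of 14 genes tested, 5 were above and 9 below their WT level in mir163, with a median difference of -0.07 in log2(FPKM + 1). At an unadjusted authors' p under 0.05 there were 0 of 14, beside 0.997% of all genes, and 0 lay beyond 1.5-fold, beside 6.83%. Counts of 0 in a list this short are near the background. The most abundant were the methionine synthase MS1 at 1290 and 1263 FPKM, the S-adenosylhomocysteine hydrolase SAHH1 at 1131 and 1136, and the S-adenosylmethionine synthetases SAM1 at 610 and 569 and MTO3 at 474 and 491. CGS1, the cystathionine synthase mutated in mto1 and named here after its values were seen, stood at 248 and 234 (authors' p 0.865).

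**Figure D4:**
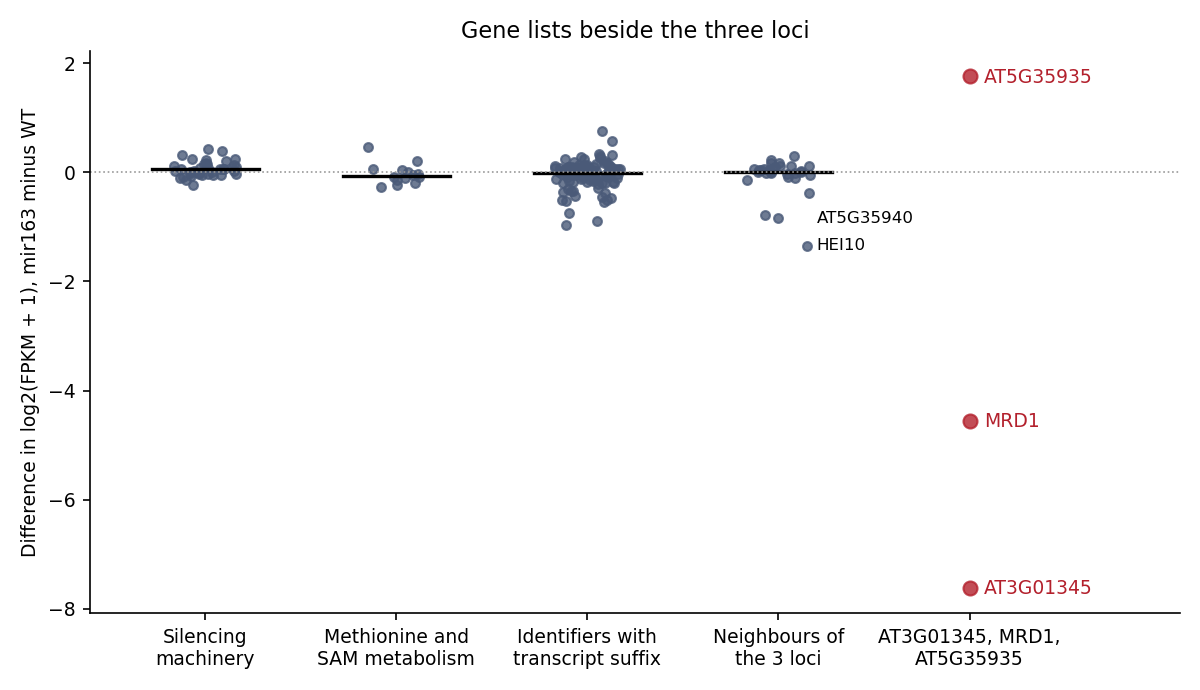
Difference in log2(FPKM + 1), mir163 minus WT, with each point a gene and the black line the median of the points drawn. The lists of silencing genes, methionine genes, suffixed identifiers (without AT5G35935) and neighbours centre near 0, and HEI10 and AT5G35940 lie below their neighbours. AT3G01345 at -7.61, MRD1 at -4.56 and AT5G35935 at 1.76 lie outside, but they were chosen by this contrast, so nothing is read from that.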

How the data were processed

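RNA was sequenced from 3 WT and 3 mir163 seedling libraries. The labels' protocols give Trizol extraction and the NEBNext Ultra kit. TopHat, Cufflinks, bcl2fastq 2.17.1.14 and the build TAIR10 appear in the submitters' processing notes, without their roles. Per the file headers, the table holds 1 FPKM by the authors for each genotype, the log2 of their ratio and a p-value without adjustment. How the authors combined libraries, and their test, are not given.

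limma had been planned for values per library. With 1 value per genotype, Benjamini-Hochberg adjustment was applied to the authors' p-values over the 19264 genes with an FPKM of at least 1 in a genotype. Differences use log2(FPKM + 1), which understates changes of low genes. The loci, lists and tests were chosen with earlier results of these data known. The text names the 3 loci, MIR163, the 2 nearest genes of the table on each side and any other neighbour at an authors' p under 0.05. It also names list members at that p or else the 4 most abundant. Named for likeness are up to 8 genes per direction, among those under 2 FPKM in one genotype and at least 10 in the other. Chosen outside this rule were CASP1, RBCS1A and CRA1 as markers, MET1, DDM1, ROS1 and CGS1 for their roles, and AT3G01319, AT5G03090, AT5G28919, AT3G27906, AT3G17050 and AT1G34842, after values were seen.

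Coordinates and sequences are from RefSeq TAIR10.1, in which 19773 identifiers, with any transcript suffix removed, matched. The deposited table holds no coordinates. Copies were sought with BLAST 2.17.0 at an E-value limit of 1e-10. Python 3.11.15, numpy 2.4.6, pandas 2.3.3 and matplotlib 3.10.9 were used, and the adjustment was tested on simulated data.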

Additional observations from a re-analysis of the deposited data

How the results depend on the processing

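No paired analysis was possible because FPKM is given once for each genotype, and leaving out libraries in turn was not run on the same ground. As no spread is known, a value was counted as moved when it shifted by over 1.5-fold. Median-ratio scaling, quantile normalization and a pseudocount of 0.1 moved none of the 3 log2 ratios by that much, and no alternative turned a direction. A pseudocount of 1 gave -7.61 for AT3G01345, -4.56 for MRD1 and 1.76 for AT5G35935, and a pseudocount of 5 gave -5.84, -3.19 and 0.70, a pseudocount by its construction drawing low values together. With a minimum FPKM of 5, 0 neighbours had an unadjusted p under 0.05 in place of 1, because AT5G35940 was left out. An FPKM under 1 in place of 2 in the lower genotype left 12 genes with a strong difference in place of 20, and MRD1 was not among them. With no filter and with the stricter minimum, 0 genes passed an adjusted p of 0.05 in either direction. Medians of the neighbours ran from 0.007 to 0.02 over the pseudocounts and scalings, and those of the silencing genes from 0.02 to 0.07.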
